A study of Mus musculus with 6 samples.

Results

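The arginase and polyamine pathway is described here through 10 genes in mouse BMDM, macrophages grown in culture from bone marrow cells. The genes were chosen by symbol from the 55291 rows of the deposited expression table, and all 10 had a row. They are Arg1 and Arg2, the polyamine synthesis genes Odc1, Amd1, Srm and Sms, the catabolic gene Sat1, and the regulators Oaz1, Oaz2 and Azin1. The study compared 3 libraries of untreated BMDM with 3 of BMDM pretreated with apoptotic cells (AC), each made from poly(A) RNA. The labels give no further genotype, strain, age or treatment for either group. What the apoptotic cells were, how many were added and for how long is not given in the sources used here. Labels do not tie replicates to separate cultures or animals. The p-values therefore reflect the spread between these libraries alone, which may be technical.

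Arginase splits arginine into urea and ornithine, and ornithine decarboxylase, encoded by Odc1, turns ornithine into putrescine. Spermidine synthase (Srm) and spermine synthase (Sms) extend putrescine with aminopropyl groups that the S-adenosylmethionine decarboxylase Amd1 makes available, and the acetyltransferase Sat1 marks spermidine and spermine for breakdown or export. In macrophages Arg1 is a marker of alternative activation, and arginine taken up with engulfed dying cells has been described as a source of putrescine. The pathway is also controlled after transcription: antizymes (Oaz1, Oaz2) bind ornithine decarboxylase and send it to the proteasome, and the antizyme inhibitor Azin1, a relative of the enzyme, binds antizyme in its place.

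The antizyme transcripts carry the control element that sets this family apart, a stop codon that the ribosome passes by a +1 frameshift when polyamines are plentiful. The site is shown because it separates the level of these transcripts, which was measured, from the amount of antizyme, which was not. Each stretch holds 30 bases, 5′ to 3′, as DNA letters, with the last codon of the first frame and the stop codon in capitals.
Oaz1: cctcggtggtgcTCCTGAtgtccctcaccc
Oaz2: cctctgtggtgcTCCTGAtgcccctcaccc
The Oaz1 site lies in coding exon sequence at chr10:80828280-80828309 and the Oaz2 site at chr9:65686257-65686286, both on the plus strand of mm10. Of the 30 bases, 28 are the same in both. The annotation skips the base at 80828295 in 3 Oaz1 transcripts and the base at 65686272 in 2 Oaz2 transcripts, which is the T of the capital TGA.

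The unit of level is TPM, read number per exon base with each library rescaled to a total of 1000000. Exon bases are those of all annotated transcripts of a gene merged, which can be more than the transcripts present hold. Levels and ratios of different genes are therefore comparable only roughly. The deposited values gave back between 19043042 and 32214583 reads per library. In the list of macrophage markers, 0 of 10 were below 1 TPM in all libraries. The 10 summed to 17210 to 25340 TPM in untreated and 23480 to 27130 TPM in AC libraries. The level of Lyz2 was 83.7 TPM in untreated replicate 1 and at least 9270 TPM elsewhere. The noncoding Gm23935 took 73940 TPM in AC replicate 3, against at most 13450 TPM elsewhere, which leaves less of the total for other genes. The typical gene was still not low there. Relative to the mean of the 6 libraries, the median over 12383 tested genes was 0.05 log2 units in AC replicate 3. In AC replicate 1 it was -0.18. All 5 hepatocyte markers, a cell type rich in Arg1, were listed at 0 in every library. Trophoblast markers summed to 6.74, 12.8 and 0.0 TPM in untreated replicates 1, 2 and 3 and to 10.3, 62.1 and 0.0 TPM in AC replicates 1, 2 and 3. The 5 epithelial markers summed to 0.650 to 1.71 TPM in untreated and 2.10 to 5.09 TPM in AC libraries, with the defining marker Epcam listed at 0 in all, and their part in the results was not tested.

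The comparison asked whether transcripts of this pathway differ in macrophages pretreated with apoptotic cells. None of the 9 members that could be tested passed: 0 were higher and 0 lower at an adjusted p under 0.05 by limma, with 0.0% of all 12603 genes called. At an unadjusted p under 0.05 there were 0 of 9 members, against 1.3% of all genes. The values of the groups overlapped for all 9, where 4.42% of all genes had groups that did not overlap. Means of log2(TPM + 1) were higher after AC pretreatment for 5 members and lower for 4, and 29.4% of all genes had higher means. Every count of higher or lower means below is on that scale, where a small difference can have another sign than in TPM. Differences are on the log2(TPM + 1) scale, as AC pretreated minus untreated, which understates the change of low genes. Their median was 0.03 over the 9 members and -0.07 over all genes. Arg1 did not reach the filter of 1 TPM in 3 libraries and was not tested. The adjusted p was 1.0 for each of the 9 members. In bulk libraries such as these, fewer cells of a type and less RNA per cell cannot be told apart.

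**Figure D1:**
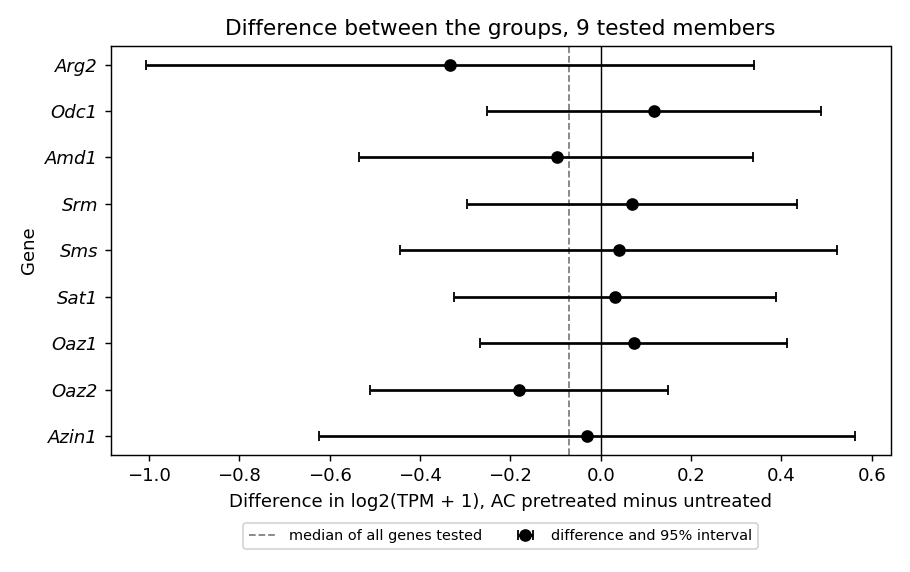
Difference in log2(TPM + 1), AC pretreated minus untreated, for the 9 tested members (points) with 95% intervals (bars, limma, n = 3 per group). All 9 intervals include 0, and the dashed line marks the median of all genes tested at -0.07.

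The arginase genes were the lowest of the pathway. Arg1 (chromosome 10, 24915221 to 24927484), the cytosolic arginase, stood at 0.437, 0.290 and 0.141 TPM in untreated replicates 1, 2 and 3. In AC replicates 1, 2 and 3 it stood at 0.346, 0.263 and 0.0645 TPM. These levels rested on 7, 7 and 2 reads and on 7, 4 and 1 reads. Both groups were near the detection floor, since 3 reads of Arg1 equal 0.124 to 0.211 TPM depending on the library. The pooled rate was 16 reads in 73527798 against 12 in 66636958, a ratio of 0.828 with an exact 95% interval of 0.357 to 1.86, which covers counting error only. Within that interval, a difference in Arg1 was not detectable at this depth.

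Arg2 (chromosome 12, 79130777 to 79156301), the mitochondrial arginase, was above Arg1 in all 6 libraries, by 2.90 to 15.6 times. It stood at 1.27, 2.84 and 1.54 TPM in untreated replicates 1, 2 and 3 and at 1.004, 1.744 and 1.007 TPM in AC replicates 1, 2 and 3. Untreated replicate 2 was highest and the groups overlapped. The log2 difference was -0.33 ± 0.29 (SE, n = 3 per group, 95% interval -1.01 to 0.34), and -0.11 without untreated replicate 2. Adding 0.1 in place of 1 to the TPM gave -0.52, and voom on recovered reads gave -0.58, with Arg2 passing in neither. Arg2 rested on 10 to 44 reads per library. It shares 285 exonic bases with Vti1b, a gene on the opposite strand at 142.9 to 189.9 TPM, so without a known strand setting reads on those bases, out of 1428, cannot be told apart from those of Vti1b.

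**Figure D2:**
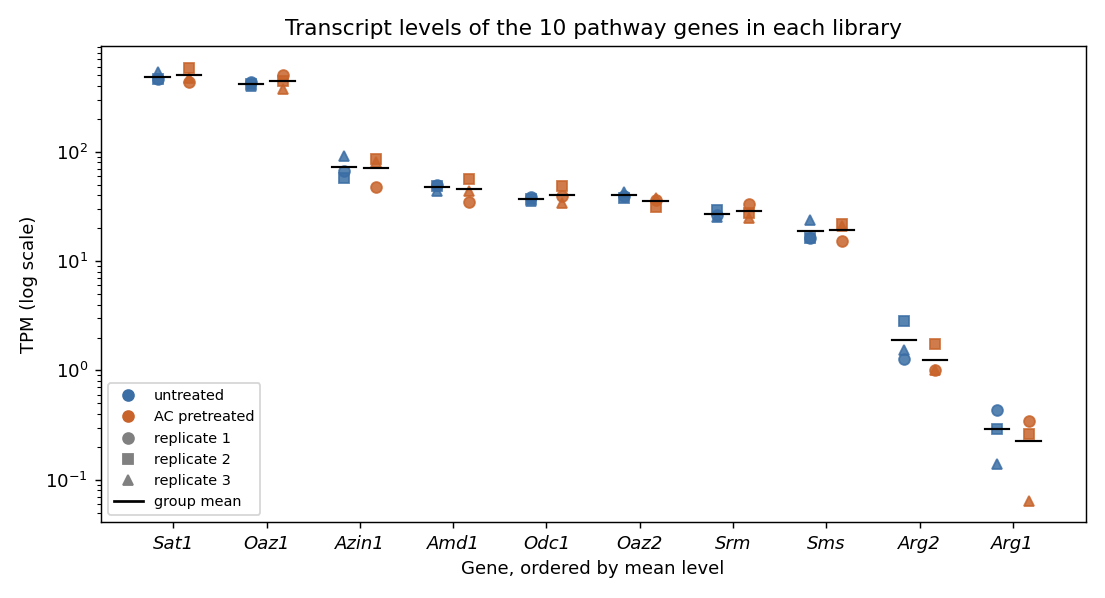
TPM (log axis) of each of the 10 genes in 6 libraries, untreated in blue and AC pretreated in orange, with a marker shape for each replicate number and a black line at each group mean. Sat1 and Oaz1 lie at 373.0 TPM or above in every library, and Arg1 lies at 0.437 TPM or below.

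Odc1 (chromosome 12, 17544794 to 17551505), which encodes the rate-limiting enzyme of polyamine synthesis, was expressed well above both arginases. It stood at 38.4, 36.7 and 35.6 TPM in untreated replicates 1, 2 and 3 and at 39.2, 48.1 and 34.0 TPM in AC replicates 1, 2 and 3. AC replicate 2 was above all other libraries and AC replicate 3 below them. The means were 36.9 ± 1.44 and 40.5 ± 7.15 TPM (SD, n = 3 each). The log2 difference was 0.12 ± 0.16 (SE, 95% interval -0.25 to 0.49). That interval equals 0.839 to 1.40 times on this scale and reflects the spread between these libraries alone. Without AC replicate 2 the log2 difference was -0.01. That library also had the highest summed markers of trophoblast (62.1 TPM), B cells (26.5 TPM), erythroid cells (17.5 TPM), epithelium (5.09 TPM) and stroma (1.39 TPM). The macrophage markers summed highest there too (27130 TPM). T cell markers were highest in AC replicate 3 (17.3 TPM) and neutrophil markers in untreated replicate 1 (48.0 TPM). Amd1 and Sat1 were also highest in AC replicate 2. What part other cells had in the Odc1 level was not tested.

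Amd1 (chromosome 10, 40287458 to 40302186) supplies the aminopropyl donor for both synthases. It stood at 49.8, 49.0 and 43.9 TPM in untreated replicates 1, 2 and 3 and at 34.8, 56.9 and 43.7 TPM in AC replicates 1, 2 and 3. The AC libraries held both the lowest and the highest value, so they bracketed the untreated ones. The log2 difference was -0.10 ± 0.19 (SE, 95% interval -0.53 to 0.34), and 0.07 without AC replicate 1. Its close paralog Amd2 reached at most 0.584 TPM, and reads shared between them could be counted for either.

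Srm (chromosome 4, 148591503 to 148594993), the spermidine synthase gene, stood at 26.4, 29.3 and 25.2 TPM in untreated replicates 1, 2 and 3, and at 33.0, 27.7 and 24.8 TPM in AC replicates 1, 2 and 3. AC replicate 1 was highest and the groups overlapped. Its log2 difference was 0.07 ± 0.16 (SE, 95% interval -0.30 to 0.43). Sms (chromosome X, 157443855 to 157492287), the spermine synthase gene, stood at 16.1, 16.4 and 23.8 TPM in untreated replicates 1, 2 and 3, and at 15.3, 21.7 and 20.7 TPM in AC replicates 1, 2 and 3. Both groups of Sms split into low and high libraries. Its log2 difference was 0.04 ± 0.21 (SE, 95% interval -0.44 to 0.52). Srm was above Sms in all 6 libraries, by 1.06 to 2.16 times. The pseudogene row Sms-ps stood at 10.3 to 26.2 TPM, on 103 to 184 reads. Its highest and lowest values were in the same libraries as those of Sms. Whether reads were shared between these rows was not tested.

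Sat1 (chromosome X, 155213132 to 155216449), which encodes spermidine/spermine acetyltransferase, was the most abundant member by mean. It stood at 463.2, 459.4 and 536.3 TPM in untreated replicates 1, 2 and 3 and at 434.3, 588.4 and 477.5 TPM in AC replicates 1, 2 and 3. The lowest and the highest values were again both in AC libraries. The means were 486.3 ± 43.4 and 500.1 ± 79.5 TPM (SD, n = 3 each), with a log2 difference of 0.03 ± 0.16 (SE, 95% interval -0.32 to 0.39). Sat1 exceeded Odc1 by 11.1 to 15.1 times within each library. Its mean level was above that of 97.8% of all genes tested.

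Among the regulators, Oaz1 (chromosome 10, 80826656 to 80829290), the main antizyme, was close to Sat1 in level. It stood at 438.4, 413.2 and 395.1 TPM in untreated replicates 1, 2 and 3, and at 502.7, 444.0 and 373.0 TPM in AC replicates 1, 2 and 3. AC replicates 1 and 2 were highest and AC replicate 3 lowest. The log2 difference was 0.07 ± 0.15 (SE, 95% interval -0.27 to 0.41), and -0.03 without AC replicate 1. The ratio of Oaz1 to Odc1 transcripts was 11.4, 11.3 and 11.1 in untreated replicates 1, 2 and 3 and 12.8, 9.22 and 11.0 in AC replicates 1, 2 and 3. That ratio averaged 11.3 ± 0.152 and 11.0 ± 1.79 (SD, n = 3 each), so its AC values lay on both sides of the untreated ones. The pseudogene row Oaz1-ps stood at 13.9 to 31.9 TPM.

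Oaz2 (chromosome 9, 65668001 to 65690300), the second antizyme, was 9.17 to 14.2 times below Oaz1. It stood at 39.0, 37.5 and 43.1 TPM in untreated replicates 1, 2 and 3 and at 36.5, 31.3 and 37.6 TPM in AC replicates 1, 2 and 3. The groups overlapped by a small margin, since AC replicate 3 (37.56 TPM) was just above untreated replicate 2 (37.54 TPM). The log2 difference was -0.18 ± 0.14 (SE, 95% interval -0.51 to 0.15), with an unadjusted p of 0.241 by limma, the smallest among the 9 members. It ranged from -0.23 to -0.10 on leaving out 1 library.

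Azin1 (chromosome 15, 38487427 to 38519266), the antizyme inhibitor gene, varied most between libraries of the members above 10 TPM. It stood at 66.2, 58.0 and 92.2 TPM in untreated replicates 1, 2 and 3 and at 47.8, 86.1 and 80.7 TPM in AC replicates 1, 2 and 3. Its highest and lowest libraries differed 1.93-fold while the group means were 72.1 ± 17.8 and 71.5 ± 20.8 TPM (SD, n = 3 each). The log2 difference was -0.03 ± 0.26 (SE, 95% interval -0.62 to 0.56). It ranged from -0.18 without AC replicate 2 to 0.23 without AC replicate 1.

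The order of levels was Sat1, Oaz1, Azin1, Amd1, Odc1, Oaz2, Srm, Sms, Arg2 and Arg1 by mean TPM over the 6 libraries. Neighbours in that order kept their places in all 6 libraries except for 3 pairs. Sat1 was above Oaz1 in 5 of 6, Amd1 above Odc1 in 5 of 6, and Odc1 above Oaz2 in 2 of 6 libraries. The step from Oaz1 to Azin1 was 4.29 to 10.5-fold and the step from Sms to Arg2 was 5.77 to 20.6-fold. The members summed to between 1093 and 1306 TPM per library, with Sat1 and Oaz1 making up 77.8 to 81.8% of that sum.

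Several members varied together between libraries in ways that crossed the groups. Azin1, Sms and Sat1 each had lower values in untreated replicates 1 and 2 and AC replicate 1 than in the other 3 libraries. This division was seen after the values. Of all genes tested, 12.5% showed it in the same direction and 11.1% in the opposite one. Untreated and AC libraries did not overlap, in either direction, for 4.42%. AC replicates 1 and 3 differed by gene length, in opposite directions. Genes in the longest 25% have merged exons over 6236 bases. Relative to the mean of the 6 libraries, their median was -0.40 log2 units in AC replicate 1 and 0.22 in AC replicate 3. Genes in the shortest 25% (up to 2088 bases) had medians of 0.09 and -0.12 in those libraries. In AC replicate 1, Azin1 (6256 exonic bases) deviated by -0.54 and Sms (6010 bases) by -0.28, while Srm (1599 bases) deviated by 0.25 and Oaz1 (2558 bases) by 0.24. Not all members followed length: Arg2, the shortest at 1428 bases, deviated by -0.32 there, and Amd1, at 3544 bases, by -0.39. The others, Sat1, Oaz2 and Odc1, deviated by -0.17, -0.03 and 0.03. In AC replicate 3, Azin1 and Sms deviated by 0.20 and 0.14, and Srm and Oaz1 by -0.15 and -0.19. There Arg2, Odc1, Amd1, Sat1 and Oaz2 deviated by -0.32, -0.17, -0.07, -0.04 and 0.01. With the trend of each library with length removed, a step chosen after seeing the data, 0 of 9 members passed. Azin1 then stood at 0.04 and Odc1 at 0.19.

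**Figure D3:**
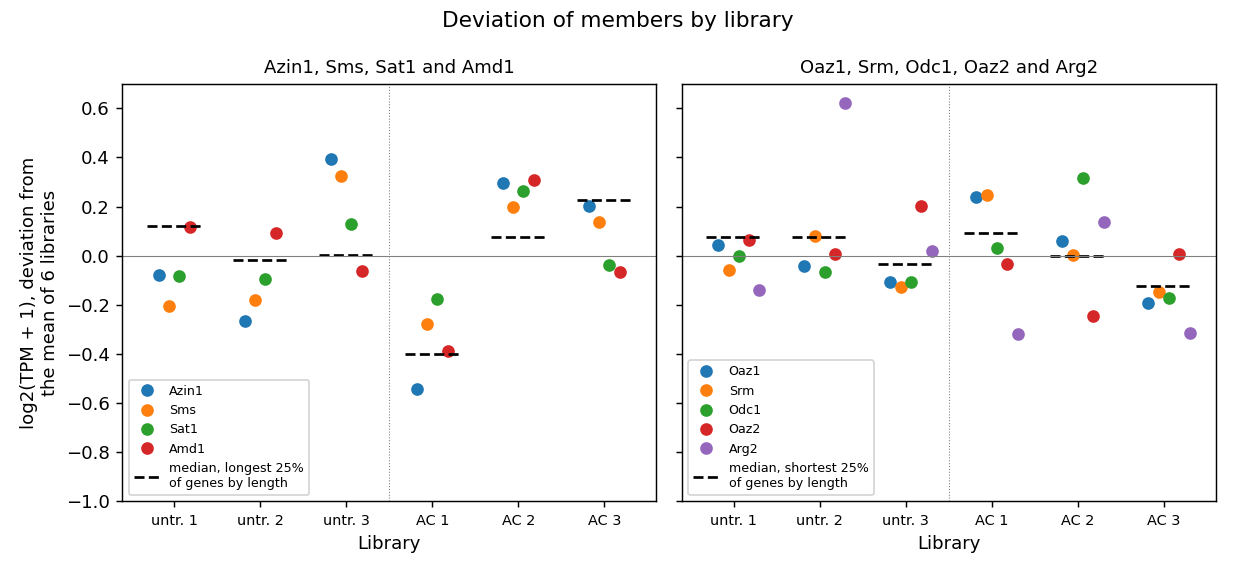
Deviation of log2(TPM + 1) from the mean of the 6 libraries for the 9 tested members (points), by library. Dashed bars give the median of the longest (left) or shortest (right) 25% of genes by length. The panels do not sort the members by length. On the left only Azin1 (6256 bases) belongs to the longest 25%, and Sat1 has 2774 bases. On the right only Srm (1599 bases) and Arg2 (1428 bases) belong to the shortest 25%, and Odc1 has 3405 bases. In AC replicate 1 Azin1 lies lowest at -0.54, Arg2 lies at -0.32, and Srm and Oaz1 lie at 0.25 and 0.24.

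Other genes of arginine and polyamine metabolism were taken from lists of 53 symbols, of which 52 had a row and 41 were tested. Of these, 16 had higher and 25 lower means, where 29.4% of all genes had higher means. In either direction 0 passed, and the median log2 difference was -0.03, against -0.07 over all genes.

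Among 14 tested genes of arginine supply and ornithine use, 0 passed and 11 had lower means (median -0.05). Over all genes 8893 of 12603 had lower means (median -0.07). Slc3a2, the heavy chain shared by several amino acid transporters, had means of 423.8 ± 12.7 TPM without and 382.9 ± 25.6 TPM with AC pretreatment (SD, n = 3 each). It was the 1 gene of the 41 whose groups did not overlap, a smaller share than the 4.42% of all genes, with 409.8 TPM in the lowest untreated and 409.3 TPM in the highest AC library. Its log2 difference was -0.15 ± 0.12 (SE, adjusted p = 1.0 by limma). Oat, which converts ornithine towards glutamate and proline, averaged 94.8 and 93.6 TPM, above Odc1 in both groups. Gatm, which uses arginine for creatine synthesis, averaged 97.1 and 100.9 TPM. Some further genes were chosen after their values were seen. Nos2, the nitric oxide synthase that competes with arginase for arginine, reached at most 0.323 TPM, and Otc, the urea cycle enzyme that consumes ornithine in liver, was listed at 0. Ass1, which helps to rebuild arginine from citrulline, averaged 10.7 ± 2.68 and 7.50 ± 1.92 TPM, a log2 difference of -0.46 ± 0.25 (SE, n = 3 each, adjusted p = 1.0 by limma). It ranged from -0.66 to -0.27 on leaving out 1 library. Of the alternatives run, it passed only with sample quality weights in limma (-0.88, adjusted p = 0.038). With those weights 276 genes passed, and 3475 of 12603 had an unadjusted p under 0.05 by limma.

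In polyamine oxidation and transport, 0 of 7 tested genes passed, and 4 had higher means (median 0.04). Atp13a2, a lysosomal polyamine exporter, was the most abundant, at 231.4 to 346.4 TPM. Smox, which encodes spermine oxidase, averaged 54.73 ± 4.995 and 56.3 ± 5.46 TPM, with a 95% interval of the log2 difference of -0.29 to 0.37. Among 9 genes of the methionine cycle and methylthioadenosine salvage, which supply and recycle the aminopropyl donor, 0 passed and 4 had higher means (median -0.02). Mat2a, the S-adenosylmethionine synthetase gene, averaged 105.7 ± 11.8 and 100.4 ± 23.9 TPM, and its lowest value, 73.3 TPM, was in AC replicate 1. Spermidine is also the donor for hypusine, a modified lysine of the translation factor eIF5A. Of 4 hypusine pathway genes 0 passed, and Eif5a averaged 478.8 ± 13.2 and 450.8 ± 79.0 TPM. Azin2, the second antizyme inhibitor, averaged 2.32 and 1.98 TPM, far below Azin1, and the germ cell antizyme Oaz3 reached at most 0.277 TPM.

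Of 6 genes for transcription factors known to act on Arg1 or Odc1, 0 passed. Stat6, which mediates the interleukin-4 response, averaged 217.4 ± 27.8 and 195.4 ± 25.8 TPM. Cebpb, an activator of Arg1, stood at 146.0, 168.6 and 121.0 TPM in untreated replicates 1, 2 and 3 and at 234.3, 160.3 and 205.4 TPM in AC replicates 1, 2 and 3. Its groups overlapped, and the log2 difference of 0.46 ± 0.19 (SE) had an unadjusted p of 0.0399 and an adjusted p of 1.0 by limma. Without 1 library it ranged from 0.33 to 0.60, and with sample quality weights it was 0.05 (unadjusted p of 0.687 by limma). Myc, an activator of Odc1 named after its values were seen, stood at 6.65, 3.74 and 7.26 TPM in untreated replicates 1, 2 and 3, and at 6.29, 10.9 and 8.89 TPM in AC replicates 1, 2 and 3. Its log2 difference was 0.51 ± 0.28 (SE, 95% interval -0.13 to 1.15).

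**Figure D4:**
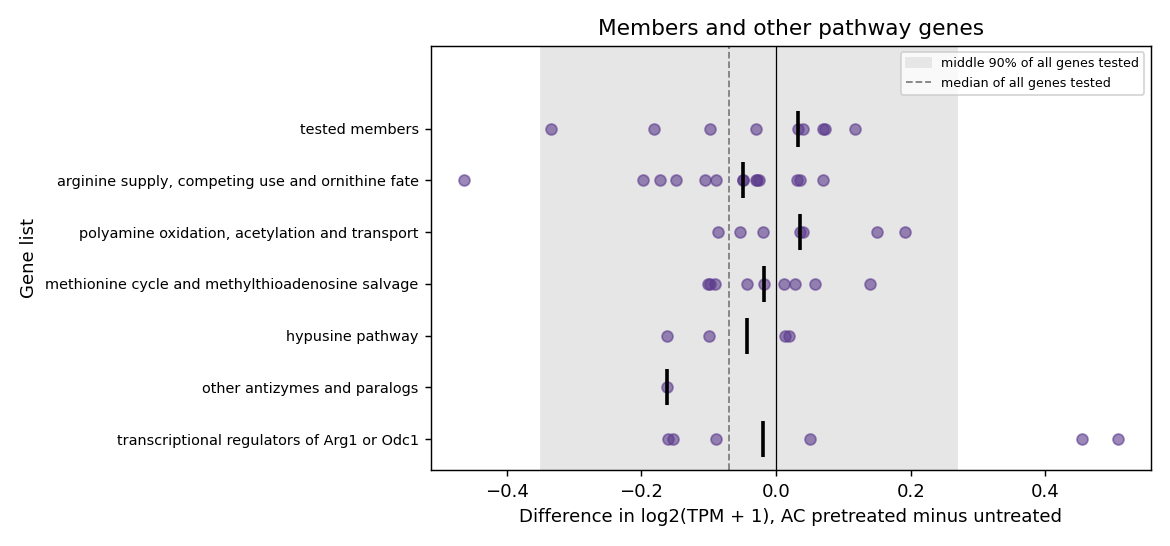
Difference in log2(TPM + 1), AC pretreated minus untreated, for the tested members and the tested genes of 6 pathway lists (points), with the median of each (black bar). The shaded band holds the middle 90% of all genes tested (-0.35 to 0.27), and the median of the members lies at 0.03.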

How the data were processed

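Per the labels' protocols, poly(A) RNA of 6 BMDM libraries was read by paired-end Illumina sequencing. The tools in the submitters' processing notes are STAR 2.7.10a, Subread and featureCounts 2.0.3, and the build is mm10, with no stated role or order. How strand, annotation and shared reads were handled is not given in the sources used here.

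What the authors deposited is a signal per gene and library, named as TPM, whose columns sum to between 54732 and 92831, up to 1.7 times apart. Times the merged exon length (GENCODE mouse M21) and over a shared factor of 8.57, it gave whole reads in all libraries for 23473 of 23829 genes (98.5%, tolerance 0.02 reads), so it is a read number per base not scaled for depth. For Amd1 a length of 3544 bases, the 1 that gave whole reads, was used in place of 3542. In all, 0 columns were unused.

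Each library was rescaled to 1000000 (TPM). The test was limma 3.58.1 (R 4.3.3, eBayes with trend) on log2(TPM + 1), 2-sided. It covered genes reaching 1 TPM in 3 or more libraries, with Benjamini-Hochberg adjustment over all genes and a threshold of 0.05. The test was tried on simulated data with independent noise for each gene and library, which lack the length trends of these libraries. Tables used pandas 2.3.3 with numpy 2.4.6 in Python 3.11.15, exact intervals scipy 1.17.1, and plots matplotlib 3.10.9. Alternatives changed the pseudocount, the filter, the scaling or the variance model, used voom on recovered reads or a replicate block, left out libraries and, chosen after seeing the data, removed length trends.

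The members and lists were chosen with earlier results of these data known. The text names all members and, from each list, genes drawn from its 3 most abundant and from those whose groups did not overlap; it does not name every gene so allowed. Others are said to be chosen after their values were seen. Context genes for library quality and overlaps were too. Marker lists for T cells, B cells, neutrophils, erythroid, epithelial and stromal cells were also summed: their highest sums were 17.3, 26.5, 48.0, 17.5, 5.09 and 1.39 TPM. Sequences are from GENCODE M21 transcripts.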

Additional observations from a re-analysis of the deposited data

How the results depend on the processing

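Under all 18 alternatives 0 members passed, including sample quality weights, whose smallest adjusted p for a member was 0.102 (limma). Over all genes, 0 passed in the fit as reported and on leaving out each library (0 to 0), 276 with sample quality weights, 10 with the values as deposited and 1 by eBayes without trend. The weights ranged from 0.181 (AC replicate 1) to 7.24 (untreated replicate 2); the cause was not tested.

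Of 161 member values under alternatives, 139 kept their direction and 22 turned. Azin1 turned to 0.038 with median-of-ratios scaling, 0.012 by voom, 0.049 in replicates 1 and 2 alone, 0.044 with length trends removed and 0.445 with sample quality weights. With those weights 5 of 9 members had an unadjusted p under 0.05, against 3475 of 12603 genes, and Odc1 stood at 0.31, Sms at 0.32 and Sat1 at 0.28. They also turned Amd1 (0.14) and Srm (-0.052), and the values as deposited turned Sms (-0.027) and Sat1 (-0.037). With median-of-ratios scaling the median over all genes was -0.01, so counts of lower means depend on the scaling. On leaving out 1 library the log2 differences ranged from -0.49 to -0.11 for Arg2, -0.012 to 0.23 for Odc1, -0.28 to 0.07 for Amd1, -0.037 to 0.16 for Srm, -0.053 to 0.21 for Sms, -0.091 to 0.13 for Sat1, -0.029 to 0.19 for Oaz1, -0.23 to -0.10 for Oaz2 and -0.18 to 0.23 for Azin1.

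Replicate numbers are shared between the groups, but libraries of the same number did not deviate together (Pearson r over genes of -0.06, 0.01 and 0.17). With the replicate block 0 genes and 0 members passed, with 225 genes at an unadjusted p under 0.05 against 164 without it. Untreated replicate 3 alone correlated best with its own number. Depth limits Arg1 and Arg2 most, with at most 44 reads per library.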
